A study of Nicotiana tabacum with 20 samples.

Results

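Leaves of empty-vector tobacco plants (*Nicotiana tabacum*) were compared with leaves of wild-type plants, to see which RNAs differ after transformation and regeneration when no Tnt1 hairpin is present. All 4 libraries labelled C and all 4 labelled WT were taken, 8 of the 20 libraries of the series, by their labels alone. WT plants carried no transgene. C plants were regenerants carrying a 35S promoter, an intron and an OCS terminator with no Tnt1 fragment named, together with hygromycin resistance. The 12 hairpin libraries (HP8_T1, HP1_T1 and HP1_T2, 4 each) carried the same kind of cassette with sense and antisense Tnt1 reverse transcriptase fragments, hygromycin resistance and a GUS reporter. HP8_T1 and HP1_T1 were regenerants, and HP1_T2 came from selfing HP1_T1. Their levels are given here only beside those of WT and C. All plants were 45 days old and were kept in vitro at 24 °C under 14 h of light. Reads were listed for 24069 UniGene sequences, each termed a feature, and 24068 of them were compared once the most abundant had been set aside.

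To transform tobacco, whole plants are regrown from cultured tissue under selection with an antibiotic, and plants carrying an empty vector serve to separate the effects of this procedure from those of the gene fragment under study. Tnt1 is a retrotransposon, a mobile element that copies itself through RNA, and is known for being transcribed when tobacco tissue is wounded, digested to protoplasts or cultured. Culture and regeneration are themselves stressful for plant tissue and can leave lasting differences in regrown plants. The labels do not say whether the C libraries came from 1 regenerant or several, which generation they belong to, or whether WT plants were given the antibiotic. Regeneration, the vector, selection and any difference between individual plants therefore cannot be told apart here. Whether libraries within a group stem from different plants is also not stated, and the p-values then reflect only the spread between these libraries, which may be technical. The files do not pair the identifiers with gene names, so features are described by abundance rank, length and level, and the leaf label could not be checked with marker genes.

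Libraries held 2680919 to 3638494 gene reads in WT and 2100788 to 2734037 in C. Most of these fell on 1 feature of 625 bases, at 84.3% ± 1.71 in WT and 89.4% ± 1.09 in C (SD, n = 4 each), so that 502229 ± 91256 reads remained outside it in WT and 258725 ± 41066 in C. Values below rest on these remaining reads unless another base is named, and the precision is lower in C. Ranks run from 2 downwards and were set by the mean share of remaining reads over the 8 libraries, each library counting equally. A rank orders features by their part of the reads, not per base of length.

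Remaining reads in C were spread more evenly over features than in WT. The feature ranked 2 lost share, features ranked 11 to 100 as a class lost share, and both classes beyond rank 100 gained. Features ranked 3 to 10 held 15.4% ± 0.560 of remaining reads in WT and 15.8% ± 0.516 in C, and the libraries overlapped (two-sided exact permutation test, p = 0.314). Within libraries of the same number, C was above WT by 0.444, 0.391, 0.374 and 0.605 percentage points for numbers 1 to 4, where the paired exact permutation test gave its smallest possible p. Features ranked 11 to 100 held 18.2% ± 0.314 in WT and 14.3% ± 0.0890 in C. Features between ranks 100 and 1000 held 13.2% ± 0.192 in WT and 16.1% ± 0.294 in C. Those beyond rank 1000 held 14.9% ± 0.292 in WT and 22.2% ± 0.384 in C (SD, n = 4 each throughout). In these last 3 classes no C library overlapped a WT library (two-sided exact permutation test, p = 0.0286, the smallest that 4 against 4 allow, and 0.0327 after Benjamini-Hochberg adjustment over 8 measures). In bulk leaf RNA, fewer cells of a type and less RNA per cell cannot be told apart.

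**Figure D1:**
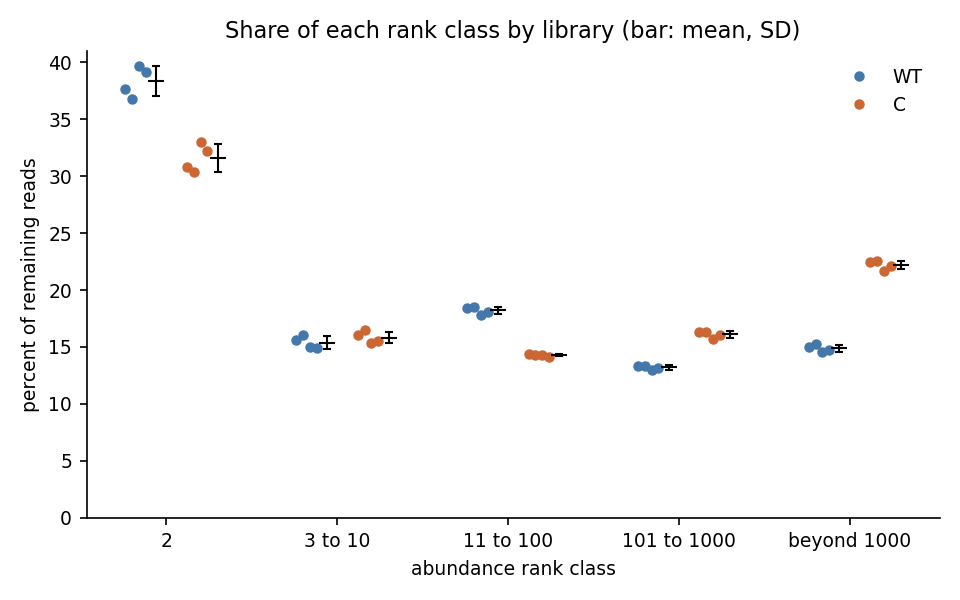
Percent of remaining reads (vertical axis) held by each abundance rank class (horizontal axis) in the 4 WT and 4 C libraries, with 1 point per library and the group mean ± SD beside the points. C libraries lie below WT at rank 2 and at ranks 11 to 100, overlap WT at ranks 3 to 10, and lie above WT between ranks 100 and 1000 and beyond 1000.

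The loss at ranks 11 to 100 depended on which libraries set the ranks. When ranks were taken from the 12 hairpin libraries, the class of ranks 11 to 100 held 12.5% ± 0.152 in WT and 14.1% ± 0.0844 in C. It was thus higher in C (exact permutation p = 0.0286). This ranking is not neutral, since the hairpin plants are transgenic too. The ranking from WT and C is not neutral either, since those are the libraries compared. The 23 abundant features that fell at least 4-fold in C were below WT in every hairpin group as well. The share of all features below WT in those groups was not counted. Which features left or entered the class under the hairpin ranking was not counted either. Its direction and p therefore cannot be separated from the choice of ranks. The gains beyond rank 100 kept their direction but were smaller. Between ranks 100 and 1000 the share went from 14.1% ± 0.353 to 15.3% ± 0.229, a difference of 1.20 percentage points in place of 2.91 (exact permutation p = 0.0286). Beyond rank 1000 it went from 20.2% ± 0.341 to 23.4% ± 0.427, a difference of 3.25 in place of 7.30 (exact permutation p = 0.0286). Single features that lost share are described below.

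A share of 50% of the remaining reads, in each library's own order of abundance, sat on 6 to 7 features in WT and on 12 to 15 in C (exact permutation p = 0.0286, adjusted 0.0327). To reach 90% of the remaining reads took 2037 ± 51.03 features in WT and 3586 ± 45.3 in C. In CPM, remaining reads scaled to a common library total, features at 1000 CPM or more were fewer in C, 46 to 51 against 71 to 76 in WT. Those at 100 CPM or more were more numerous, 735 to 797 against 532 to 558. The curves of level against rank accordingly crossed between these levels, and they also crossed among the few most abundant features.

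**Figure D2:**
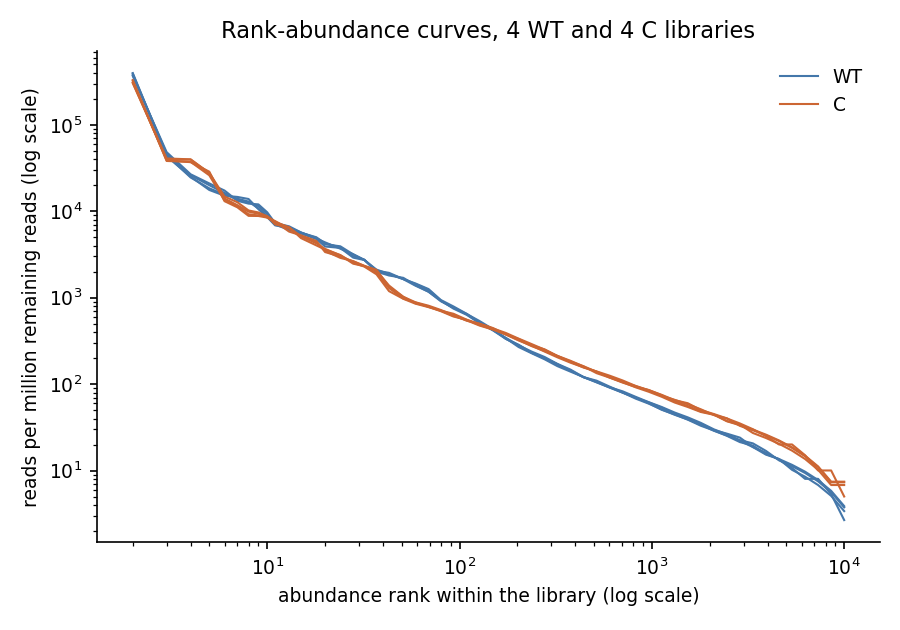
CPM of remaining reads (vertical axis, log scale) against abundance rank within each library (horizontal axis, log scale), with 1 line for each of the 4 WT and 4 C libraries. The C lines lie below the WT lines around rank 50 and above them beyond rank 1000, and lines of the same group lie close together.

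More features were detected in C at equal depth. At 199341 remaining reads per library, the depth of the shallowest library, 10243 ± 58.5 features had at least 1 read in WT and 12023 ± 83.7 in C (SD, n = 4 each, exact permutation p = 0.0286, adjusted 0.0327). With at least 3 reads asked for, the numbers were 5043 ± 80.6 and 6807 ± 55.8. Without equalising depth, libraries of the same number detected nearly the same number of features in both groups: 12050 in WT and 11950 in C for number 1, 12872 and 12869 for number 2, 13244 and 13234 for number 3, and 13049 and 13028 for number 4. Of these, 9117, 10132, 10517 and 10279 had a read in both libraries of that number. Many detected features have fewer than 3 reads, and the overlap of libraries within a group was not counted. Whether overlap between groups was lower than within them was thus not tested.

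Against all gene reads, with the most abundant feature counted in, the picture beyond rank 100 changed. Features beyond rank 1000 then held 2.33% ± 0.215 of all reads in WT and 2.35% ± 0.202 in C, which overlapped (exact permutation p = 0.800). Those between ranks 100 and 1000 held 2.06% ± 0.195 and 1.71% ± 0.144 (exact permutation p = 0.0571). Ranks 3 to 10 held 2.40% ± 0.199 in WT and 1.68% ± 0.128 in C, ranks 11 to 100 held 2.85% ± 0.263 and 1.51% ± 0.150, and rank 2 held 6.01% ± 0.847 and 3.36% ± 0.469 (exact permutation p = 0.0286 for each). So on this scale the classes down to rank 100 were lower in C, and the rarest class differed by less than its spread.

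The share that left features in C left a few of them, and the share gained was spread over many. In all, 22.8 percentage points of remaining reads moved between the group means. The feature ranked 2 alone made up 29.5% of the loss, 13 features made up 50% of it, and the first 100 made up 79.1%. It took 386 features to make up 50% of the gain, and the first 100 made up 37.01% of it. Higher mean shares in C than in WT were found for 11630 features and lower ones for 6194.

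**Figure D3:**
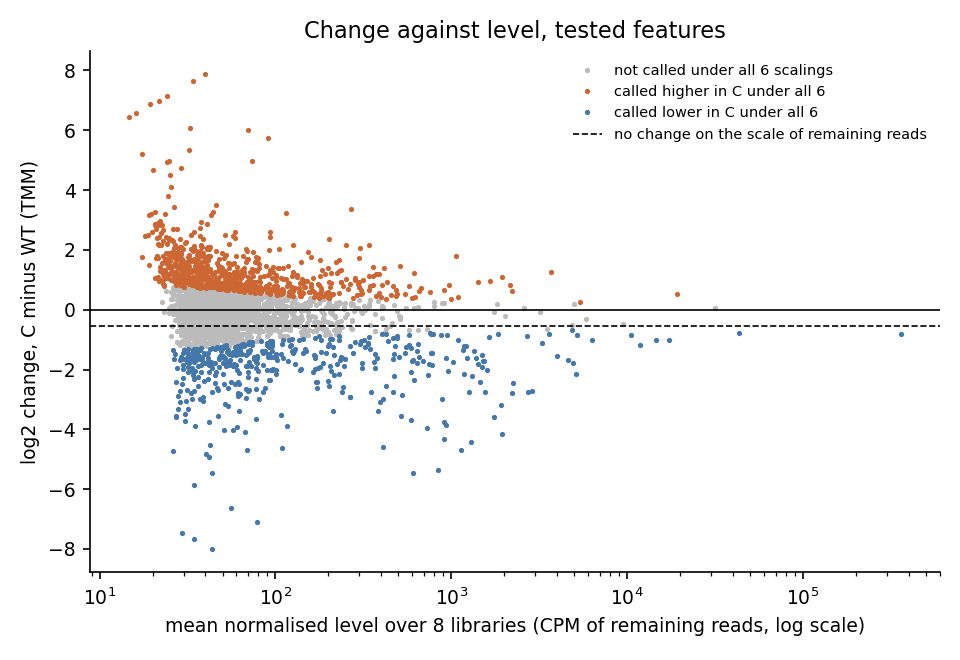
Log2 change of C against WT with TMM scaling (vertical axis) against the mean normalised level over the 8 libraries (horizontal axis, CPM of remaining reads, log scale), with 1 point for each of the 2678 tested features. Orange and blue points were called higher or lower in C under all 6 scalings, and the dashed line marks no change on the scale of remaining reads. At the highest levels the blue points outnumber the orange ones and reach further from 0.

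Feature by feature, most of those tested differed between the groups. Of 2678 features with enough reads to test, 57.2% were called, 744 higher in C (27.8%) and 788 lower (29.4%). Calls come from edgeR's quasi-likelihood test with TMM scaling, which sets the typical feature near no change, at a p of 0.05 after Benjamini-Hochberg adjustment. Rises reached 2-fold for 408 features (15.2% of those tested) and falls for 473 (17.7%). They reached 4-fold for 96 (3.58%) and 147 (5.49%). The median log2 change was 1.07 among rises and −1.16 among falls, with a median SE of 0.27. C and WT libraries did not overlap in normalised level for 639 features higher in C (23.9%) and 684 lower (25.5%). The tested features held 90.9% of remaining reads in WT and 86.0% in C.

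The balance of rises and falls depended on the scale. With TMM the median log2 change over the tested features was 0.02, and 48.6% of calls were rises. When the remaining reads themselves set the scale, the median was 0.56, 1337 features were higher (49.9%) and 431 lower (16.1%), and 75.6% of calls were rises. All 744 rises were also rises on that scale, while of the 788 falls 431 remained falls, 352 were not called and 5 became rises. With library totals the median was −0.0021, with 690 rises and 767 falls. Under all 6 scalings tried, 690 features were called higher (25.8%) and 431 lower (16.1%). The scaling by remaining reads alone sets the second of these counts, since its falls are the same in number.

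Falls made up a larger share of the calls among abundant features than among all tested, though this difference was not tested. Ranks were set by the same WT and C libraries, so a feature high in only 1 group can enter ranks 2 to 100. Of the 100 most abundant in the WT mean, 17 lay outside the 200 most abundant of C. Conversely, 11 of the 100 most abundant in C lay outside the 200 most abundant of WT. The counts by class are therefore not independent of the changes counted. Of the 99 features ranked 2 to 100, 70 fell and 23 rose with TMM (70.7% and 23.2%, against 29.4% and 27.8% of all tested), and 64 fell and 31 rose on the scale of remaining reads. Of these, 64 fell and 18 rose under all 6 scalings. Falls of at least 4-fold numbered 23 with TMM and 15 on the scale of remaining reads. Rises of at least 4-fold numbered 0 with TMM and 1 on the scale of remaining reads. Between ranks 100 and 1000, 318 of 900 features fell and 271 rose with TMM, and 170 fell and 485 rose on the scale of remaining reads. Of the 1679 tested features beyond rank 1000, 400 fell and 450 rose with TMM, and 197 fell and 821 rose on the scale of remaining reads. The median log2 change was −1.0001 at ranks 2 to 100, −0.02 between ranks 100 and 1000 and 0.06 beyond with TMM, and −0.45, 0.52 and 0.60 on the scale of remaining reads. The abundant features rest on far more reads, and the median SE of a log2 change was 0.08 at ranks 11 to 100 against 0.28 at the 1000 ranks after rank 1000, so small changes pass the test more easily among them.

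**Figure D4:**
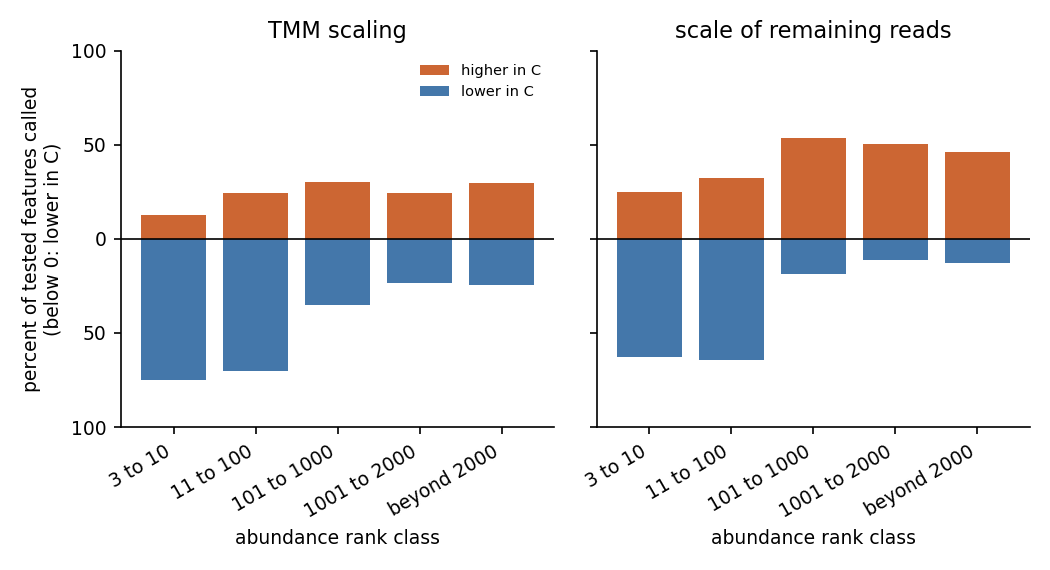
Percent of tested features called higher in C (above 0) or lower in C (below 0) in each abundance rank class, with TMM scaling on the left and the scale of remaining reads on the right. Lower calls outnumber higher calls at ranks 3 to 10 and 11 to 100 on both scales, while beyond rank 1000 higher calls outnumber lower calls on both.

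The feature ranked 2 was Nta#S33548736, of 868 bases. It took 37.7%, 36.8%, 39.7% and 39.2% of remaining reads in the WT libraries numbered 1 to 4, and 30.8%, 30.4%, 33.0% and 32.2% in those of C. Every C library lay below every WT library. Its log2 change was −0.82 with TMM (SE 0.04, edgeR adjusted p = 2.4e-21) and −0.28 on the scale of remaining reads (edgeR adjusted p = 2.83e-06), and it fell under all alternatives tried.

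Ranks 3 to 10 held both falls and gains. The feature ranked 3, of 855 bases, went from 4.57% ± 0.222 of remaining reads in WT to 3.87% ± 0.186 in C. The features ranked 6, 7 and 8, of 887, 544 and 912 bases, had log2 changes of −1.02, −1.0001 and −1.19 with TMM. The feature ranked 9, of 866 bases, fell by 0.85, but 22.7% of its reads were unique to it, so its count may be shared with a near-identical sequence. These 5 features fell under all 6 scalings. The feature ranked 4, of 554 bases, went from 2.57% ± 0.0977 to 3.92% ± 0.0761 of remaining reads, a log2 change of 0.61 on that scale (edgeR adjusted p = 2.47e-14). With TMM its log2 change was 0.06 (edgeR adjusted p = 0.244), so its call rests on the scale. The feature ranked 10, of 540 bases, was called lower with TMM (log2 change −0.47) and was not called on the scale of remaining reads (0.07, edgeR adjusted p = 0.297).

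The feature ranked 5 was Nta#S40628399, of 543 bases, the most abundant of those that rose under all 6 scalings. Its share of remaining reads was 1.27%, 1.20%, 1.30% and 1.47% in the WT libraries and 2.75%, 2.78%, 2.61% and 2.87% in the C libraries, with no overlap. Its normalised level was 15821 ± 1612 CPM in WT and 22768 ± 753 in C (SD, n = 4 each) after TMM scaling, which is used for all CPM values of single features. Its log2 change was 0.53 with TMM (SE 0.06, edgeR adjusted p = 4.16e-11) and 1.07 on the scale of remaining reads. Its gain of 1.44 percentage points was the largest of any feature.

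Several features abundant in WT were scarce in C. The feature ranked 42, of 920 bases, was at 3782, 3762, 3526 and 3598 CPM in WT and at 222, 190, 197 and 220 in C. Its log2 change was −4.15 (SE 0.08, edgeR adjusted p = 8.27e-38), and its rank was 29 in WT and 266 in C. The feature ranked 93, of 956 bases, fell furthest among ranks 2 to 100, from 1641 ± 48.2 CPM in WT to 41.1 ± 10.8 in C, and from rank 64 to rank 1762. The longest of this set, ranked 62 and of 4578 bases, went from 2491 ± 58.4 CPM to 116 ± 27.5. The 23 features of ranks 2 to 100 that fell at least 4-fold held 5.29% to 5.62% of remaining reads in the WT libraries and 1.13% to 1.20% in those of C. They were 699 to 4578 bases long with a median of 970.

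The rises among abundant features were smaller. The feature ranked 56, of 828 bases, rose most, from 463, 516, 477 and 448 CPM in WT to 1720, 1667, 1648 and 1551 in C, a log2 change of 1.79 (SE 0.08, edgeR adjusted p = 2.23e-25). That ranked 21, of 597 bases, went from 2180 ± 161 to 5235 ± 391 CPM, and that ranked 33, of 2306 bases, from 1236 ± 47.0 to 2666 ± 93.0. The 18 features of ranks 2 to 100 that rose under all 6 scalings together held 2.92% to 3.06% of remaining reads in WT and 6.64% to 6.94% in C.

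The features with the largest fitted changes had no reads at all in 1 of the groups. Nta#S45481722, of 911 bases and ranked 1485, had 0 reads in each WT library and 18, 35, 28 and 19 reads in the C libraries. With WT set at 3 reads over its 4 libraries, its pooled level of 80.1 CPM was at least 44.3-fold higher in C (edgeR adjusted p = 2.7e-14). Nta#S45436666, of 621 bases and ranked 2081, had 27, 43, 46 and 29 reads in the WT libraries and 0 in each C library. Its pooled level of 87.3 CPM in WT was at least 36.4-fold higher than in C set at 3 reads over the group (edgeR adjusted p = 7.03e-14). These bounds cover counting error in the group without reads only, not that in the other group or variation between libraries.

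**Figure D5:**
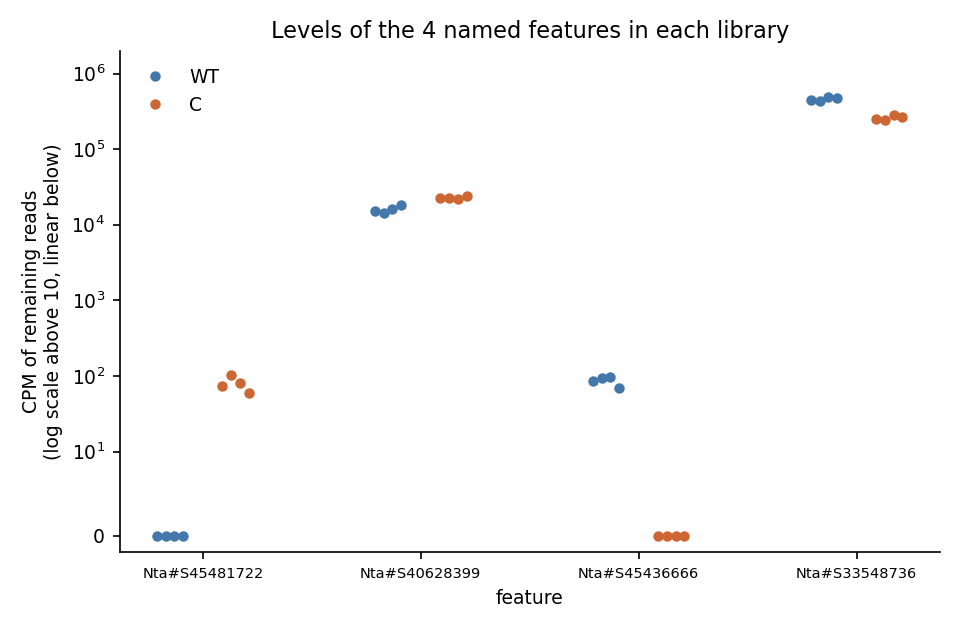
Normalised level in CPM of remaining reads (vertical axis, log scale above 10 and linear below) of the 4 named features in each of the 4 WT and 4 C libraries, with 1 point per library. The groups do not overlap for any of the 4, which was a condition for naming them. Nta#S45481722 in WT and Nta#S45436666 in C are at 0 in every library.

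Presence in a single group was mostly a matter of few reads. Of the 24068 features compared, 2604 had reads in C but none in WT, and 540 of these had a read in every C library. Reads in WT but none in C were found for 1844, and 562 of these had a read in every WT library. C held fewer remaining reads than WT, so the counts of the 2 directions are not directly comparable. Among features without a read in WT, 9 had at least 40 reads over the 4 C libraries, and 100 was the most. Among those without a read in C, 14 had at least 40 reads over the 4 WT libraries, and 145 was the most. The floor set for a group without reads, 3 reads over the group, was 1.81 CPM in WT and 2.40 CPM in C. Levels below it in the group without reads may have gone undetected at this depth.

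Among features with intermediate counts, the feature ranked 126, of 975 bases, went from 1969 reads over the WT libraries to 33 over those of C, a log2 change of −5.48 (SE 0.14, edgeR adjusted p = 4.48e-34). That ranked 208, of 714 bases, went from 79 to 614 reads, a log2 change of 3.36 (SE 0.15, edgeR adjusted p = 1.75e-24). These were chosen after their values were seen, as the furthest from no change among features called alike under all 6 scalings, without overlap and with over 30 reads in both groups. Of the 1146 features not called with TMM, 1056 had fitted levels within 1.5-fold of each other on that scale, and 0 reached a 2-fold difference. On the scale of remaining reads, 588 of the 1146 were called higher in C, so they are steady only with TMM.

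Membership of the 100 most abundant features differed more between the groups than within them, while that of the 10 most abundant differed little in either. The 100 most abundant remaining features of 2 libraries shared 97 to 99 members within WT and 92 to 95 within C, against 61 to 64 between WT and C. For the 10 most abundant the shared number was 9 or 10 within groups and 9 between them. Of the 100 most abundant in the WT mean, 62 were among the 100 most abundant of the C mean, 17 lay outside its 200 most abundant and 2 outside its 1000 most abundant. The spread between C libraries was close to that between WT libraries, with a common biological coefficient of variation of 7.66% in C alone and 8.09% in WT alone.

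The hairpin groups gave the following levels for the same features. They are set beside C without a test, because every comparison with WT uses the same WT libraries. The 23 abundant features that fell at least 4-fold in C held 5.47% ± 0.162 of remaining reads in WT, and 1.16% ± 0.0329 in C (SD, n = 4 each). Among hairpin groups the share was 0.452% ± 0.0230 for HP8_T1, 0.341% ± 0.00538 for HP1_T1 and 0.558% ± 0.0206 for HP1_T2. The 18 abundant features that rose held 2.96% ± 0.0716 in WT and 6.84% ± 0.133 in C, beside 5.76% ± 0.0573 for HP8_T1, 8.79% ± 0.142 for HP1_T1 and 7.62% ± 0.109 for HP1_T2. Scaled over all 20 libraries, the feature ranked 42 was at 4570 ± 170 CPM in WT and 243 ± 16.6 in C, beside 14.1 ± 1.88 for HP8_T1, 30.7 ± 7.25 for HP1_T1 and 36.7 ± 6.39 for HP1_T2. On the same scale Nta#S45481722, without reads in WT, was at 93.5 ± 22.8 CPM in C, beside 147 ± 28.3 for HP8_T1, 52.3 ± 11.1 for HP1_T1 and 141 ± 20.3 for HP1_T2. Nta#S45436666, without reads in C, had 0 reads in HP8_T1 and HP1_T1 and 6 in HP1_T2. Scaled over all 20 libraries, the mean of each of the 23 fallen features lay below WT in all 3 hairpin groups. Both sets were chosen by their values in WT and C. The share of all features on each side of WT was not counted for the hairpin groups. The counts given here therefore have no background and do not show agreement particular to these features. Of the 18 risen features, 12 lay above WT in HP8_T1, 14 in HP1_T1 and 16 in HP1_T2. Among the exceptions, the feature ranked 44, of 916 bases, was at 1205 ± 97.5 CPM in WT and 2183 ± 182 in C but at 637 ± 23.8 for HP8_T1. The feature ranked 32, of 899 bases, was at 1922 ± 34.5 CPM in WT and 3233 ± 257 in C but at 1118 ± 80.6 for HP1_T1.

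The authors' deposited table compared WT with C on the square root of RPKM scaled by library totals. It gave a p-value under 0.05 to 3221 features higher in C and 3144 lower among all 24069, and 147 features had a p that stays under 0.05 after multiplying by the number of features. Among the 2678 features tested here, the authors' deposited table had 701 higher and 762 lower at that threshold, of which 661 and 716 were also called in the same direction by edgeR and 0 in the opposite one.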

How the data were processed

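Libraries were prepared from leaf total RNA for SOLiD sequencing, per the labels' protocols. For the aligner and build, none was given in the sources used here. The authors deposited raw counts of total and unique gene reads per feature (per the file headers), feature lengths and RPKM. The deposited RPKM equalled reads divided by length and by total gene reads, and the deposited transformed score equalled its square root, for 100% of values within a relative tolerance of 1e-06. The p-values of WT against C and the score differences are the authors', per the file headers. None (0) of the identifiers matched the 79372 genes of the RefSeq table. The WT columns were identical in both deposited tables. Unique reads made up 99.4% to 99.7% of total reads.

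Total gene reads were tested with edgeR 4.0.16 (R 4.3.3): the most abundant feature left out of counts and library sizes, filterByExpr with a minimum count of 10, TMM factors, a single term for group, QL F tests and Benjamini-Hochberg adjustment over 2678 features. The SE is the log2 change divided by the square root of F. The 6 scalings were TMM, DESeq2 1.42.0 size factors, remaining reads, library totals, upper quartile, and reads left without the 100 most abundant features. Exact permutation tests, two-sided, were used for single values (Python 3.11.15, scipy 1.17.1). Detection at equal depth is the hypergeometric expectation. On simulated counts for C against WT (2678 features), 73% of 2-fold and 100% of 4-fold changes were recovered, and 1.70% of calls were false. The simulation changed far fewer features than were called in the data, with rises and falls in equal number and independent noise. It therefore does not gauge false calls that come from the choice of scale or from libraries varying together. Library pairs of a group differed by more than counting noise, with chi-square per degree of freedom of 1.18 to 2.27.

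Named features were those with the largest change and the highest level in each direction among features called alike under all 6 scalings, with no overlap between groups and an average of 20 reads or more where higher. Features given by rank and length alone were picked after their values were seen. Comparisons and lists were chosen with earlier results of these data known.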

Additional observations from a re-analysis of the deposited data

How the results depend on the processing

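Calls (744 higher in C, 788 lower) were recomputed under each alternative. With remaining reads as the scale there were 1337 and 431. Without a filter on low counts (17824 features) there were 2335 and 2694, 5029 in all, including 567 of the 744 rises and all 788 falls. The fit of all 20 libraries (6921 features) gave 1483 and 1394, 2877 in all, including 643 of the rises and all 788 falls. DESeq2's Wald test gave 603 and 665. Leaving out each library in turn gave 690 to 724 higher, 719 to 761 lower and 1427 to 1475 in all. The 4 named features kept their direction and call under every alternative.

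Same-numbered libraries of C and WT correlated in their deviations from the group means at −0.00833 to 0.0686 over all tested features, most of which have few reads. Over features with a mean of 200 reads or more, these correlations were 0.228, 0.538, 0.234 and 0.526, though WT library 3 correlated better with C library 4 (0.278). The labels do not say what a number marks, so the libraries were not paired in the test. For the most abundant features, however, same-numbered libraries did vary together. From highest to lowest share of the most abundant feature, the numbers ran 1, 2, 4, 3 in WT, in C and in each hairpin group. For the share of rank 2 they ran 3, 4, 1, 2 in every group. No test was made of these orders. The unpaired tests and the SDs within groups leave this shared variation out of account. With the replicate number as a block, the common biological coefficient of variation was 4.21% in place of 7.91%, and 739 features were higher and 791 lower, 734 and 784 of them as without it. For the single values, the paired exact test over 4 numbers cannot pass the 0.05 threshold, and no p did so, for C minus WT differences of 5.04 percentage points (most abundant feature), −6.73 (rank 2), −3.94 (ranks 11 to 100), 2.91 (between ranks 100 and 1000) and 7.30 (beyond 1000), of 7 features holding 50% of the remaining reads and of 1780 features detected.

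Leaving out each library in turn, these 7 differences ranged from 4.35 to 5.61, −7.24 to −6.28, −4.07 to −3.84, 2.83 to 3.04, 7.19 to 7.48, 6.50 to 7.50 and 1745 to 1808. The smallest p that 4 libraries against 3 allow is 0.0571, so no p passed. With ranks from the hairpin libraries, ranks 11 to 100 differed by 1.56 in place of −3.94, ranks between 100 and 1000 by 1.20 and ranks beyond 1000 by 3.25. As percent of all gene reads, an alternative chosen after seeing the data, ranks 3 to 10 differed by −0.725, ranks between 100 and 1000 by −0.356 and ranks beyond 1000 by 0.0250. C holds fewer remaining reads than WT, which limits the precision of rare features.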

Other observations

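The feature ranked 12, of 533 bases and picked after its values were seen, varied within both groups. Its share of remaining reads was 0.489%, 0.369%, 0.611% and 0.648% in the WT libraries numbered 1 to 4 and 0.574%, 0.475%, 0.705% and 0.750% in those of C. The libraries numbered 2 were lowest and those numbered 4 highest in both groups. Its groups overlapped, and its log2 change was −0.30 with TMM (SE 0.11, edgeR adjusted p = 0.0138) and 0.24 on the scale of remaining reads (edgeR adjusted p = 0.0261), so it was called in opposite directions on these scales.

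Feature length went with the calls only weakly. Among the 671 shortest tested features, up to 834 bases, 30.6% rose and 29.7% fell with TMM, against 26.3% and 31.3% among the 662 longest, from 956 bases. No test was made of this difference.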
